A study of Mus musculus with 91 samples.

Results

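Within the Pyr←ORBvl neurons, the layer 5 pyramidal neurons (L5 Pyrs) of mouse primary visual cortex (V1) assigned to input from the ventrolateral orbitofrontal cortex, neurons with at least 1 *Fezf2* count were compared with neurons that had 0. Of 91 sequenced neurons, 44 were labelled Pyr←ORBvl and 47 Pyr←LP, the latter assigned to input from the lateral posterior thalamic nucleus. Neurons were left out where the sum of log2(count + 1) over the GABAergic genes *Slc32a1*, *Gad1* and *Gad2* was above 7. This left 39 Pyr←ORBvl neurons, of which 27 had a *Fezf2* count (the detected class) and 12 had none (the undetected class). The classes were selected on the *Fezf2* counts, so *Fezf2* itself is given as a description.

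The study used male and female mice aged 8–12 weeks, wild-type (C57) and transgenic. Its methods do not name the genotype or sex of the mice of the sequenced neurons. Each neuron was recorded in a slice, its soma and nucleus were aspirated, and its cDNA was amplified and sequenced as 1 library (Patch-seq). The input label of the sequenced neurons was assigned from the slope of the hyperpolarization-activated current by a classifier, not from activation of the input itself. Every sample is 1 neuron and the labels name no animal, so neurons are not replicates and the classes are compared by levels, shares and ranges, with no p-values. Neurons are called C1 to C44 in the order of their deposit.

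*Fezf2* encodes a zinc-finger transcription factor that specifies subcortically projecting deep-layer neurons during development and stays on in adult L5 neurons. The L5 extratelencephalic neurons, which project out of the telencephalon, carry it with the transcription factors *Bcl11b* (Ctip2) and *Pou3f1* and with *Crym*, a thyroid hormone-binding protein. The L5 intratelencephalic neurons, which project within the cortex and striatum, are marked by genes such as *Rorb* and *Deptor*.

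*Fezf2* (RefSeq annotation of GRCm38, chromosome 14, 12338992 to 12346803) was counted in 69.2% of the 39 Pyr←ORBvl neurons (exact binomial 95% interval 52.4 to 83.0%). Intervals for shares treat the neurons as independent draws and cover counting error only. The library kit carries no molecular identifiers, so limits set from counts do not cover amplification error. In the 27 detected neurons its level was between 1.20 and 873 counts per 1000000 counts of the neuron (CPM), with a median of 269 CPM. The level had a gap at its low end: 24 of the 27 neurons held 84.2 CPM or more, and the other 3 were below 10 CPM. The neurons just inside the threshold of 1 count were C7 with 1 count (1.20 CPM), C6 with 2 counts (2.03 CPM), C27 with 5 counts (147 CPM), C24 with 7 counts (155 CPM) and C4 with 8 counts (6.66 CPM). Just outside it, all 12 undetected neurons had 0. The levels of C7 and C6 were below what 0 counts could exclude in any undetected neuron.

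What a count of 0 meant differed between the undetected neurons. Taking 3 counts as the limit that a count of 0 allows, this limit ran from 3.39 CPM in C1, with 884383 total counts, to 1245 CPM in C19, with 2410. In 9 of the 12 neurons it was below the 84.2 CPM that 24 detected neurons reached, which describes how much *Fezf2* a count of 0 leaves room for and is no test, since the counts set the classes. In 5 of them (C1, C31, C2, C25 and C41) it was below 10 CPM. In the other 3 the limits were 229 CPM in C18, 259 CPM in C13 and 1245 CPM in C19. The first 2 were just below the detected median of 269 CPM, so a level in the lower part of the detected range could have gone uncounted there. In C19 the limit was above the highest detected level of 873 CPM, and no level of the detected class could be told from 0 at this depth. All limits were set from total counts alone and do not cover libraries with few genes, such as C1 (1712) and C16 (1688).

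**Figure D1:**
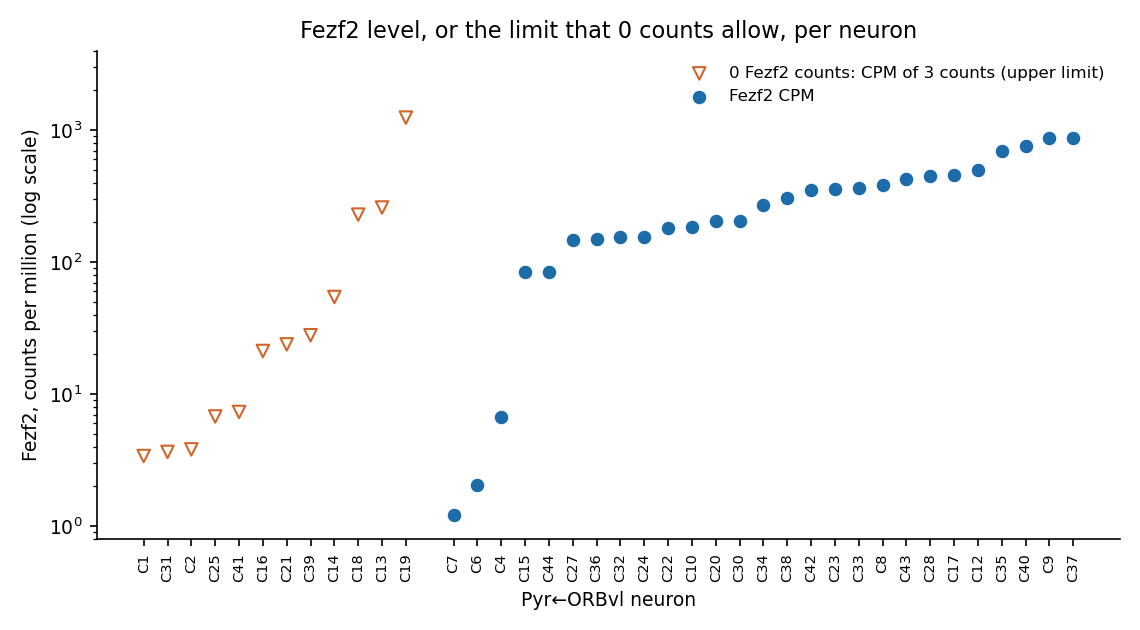
Level of *Fezf2* (filled circles, CPM, log axis) in each of the 27 detected Pyr←ORBvl neurons, and the CPM of 3 counts (open triangles), the limit that 0 counts allow, in each of the 12 undetected neurons. The limits are below 84.2 CPM in 9 undetected neurons and between 229 and 1245 CPM in C18, C13 and C19.

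The undetected neurons were also shallower and held fewer genes. Total counts were between 34056 and 1699215 (median 629789) in the detected class and between 2410 and 884383 (median 133754) in the undetected class. Genes with at least 1 count numbered between 2535 and 6867 (median 3985) against between 1015 and 5050 (median 2717), a difference in medians of 1268 genes. The ranges overlapped, but 5 undetected neurons had fewer genes than any detected neuron. When each neuron was thinned to 100000 counts, which left 22 detected and 8 undetected neurons, the medians were 3663 and 2922 genes, and 20 of the 22 detected neurons kept a *Fezf2* count. The start of a neuron's title, shared by neurons deposited under the same prefix, took 15 values, of which 8 held both classes. The mean number of genes was higher in the detected class in 6 of these 8 prefixes and the mean total in 7.

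This gap in median detected genes depended on the undetected neurons with the fewest genes. C1, C13, C16 and C19, all undetected, had fewer than 2000 genes, and no detected neuron did. Without these 4 the medians were 3985 genes in 27 detected neurons and 4110 in 8 undetected neurons, and the direction was the opposite. C19 and C13 were the shallowest of the class, at 2410 and 11566 counts, C16 had 141473 and C1 had 884383.

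**Figure D2:**
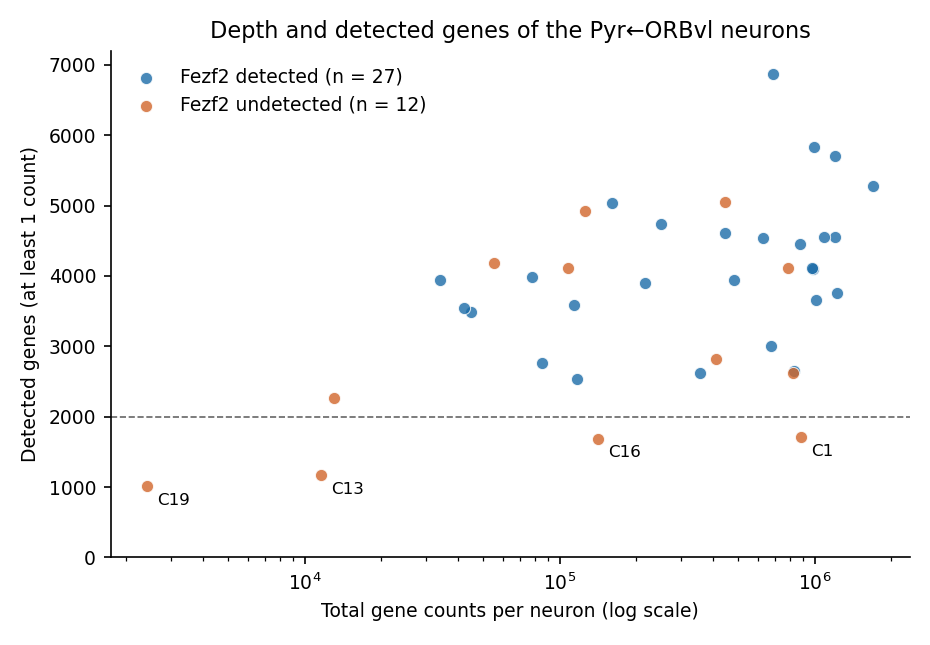
Total gene counts (log axis) against genes with at least 1 count for each Pyr←ORBvl neuron, coloured by *Fezf2* class. The 4 neurons under the dashed line at 2000 genes (C1, C13, C16 and C19) are all undetected. Above it the classes overlap, except that C18 (undetected, 2265 genes) lies below every detected neuron in both counts and genes.

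Neuronal identity was checked first. *Snap25*, a presynaptic SNARE protein, had counts in all 39 neurons, and so did *Nrgn*, the calmodulin-binding protein neurogranin of excitatory neurons (27 of 27 and 12 of 12). *Slc17a7*, the vesicular glutamate transporter VGLUT1, had counts in 24 of 27 detected and 7 of 12 undetected neurons (88.9% against 58.3%). Its mean level was similar, 103 ± 87.7 CPM (SD, n = 27) and 88.3 ± 113 CPM (SD, n = 12). The 5 undetected neurons without it were C1, C13, C14, C19 and C41. *Camk2a*, a calcium-dependent kinase of excitatory neurons, had counts in 22 of 27 against 8 of 12, at means of 204 and 357 CPM. The transcription factors *Neurod6* (8 against 1) and *Neurod2* (9 against 2) were sparse in both classes.

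The background for every other gene was a general shift towards the detected class. Over the 4364 genes other than *Fezf2* with at least 5 counts in at least 10 of the 39 neurons, the share of neurons with a count was higher in the detected class for 82.0% and lower for 14.7%, with a median difference of 14.8 percentage points. A marker is read below against that median. Without the 4 neurons under 2000 genes the median over the same genes was 3.24 points.

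**Figure D3:**
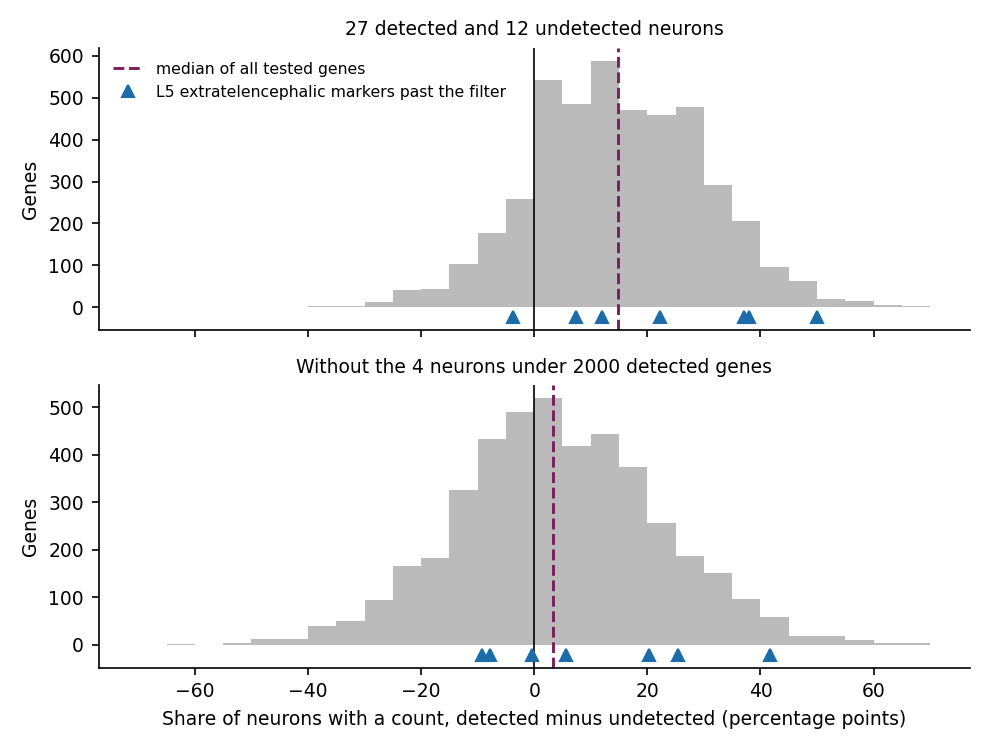
Number of genes by the difference in the share of neurons with a count (detected minus undetected, percentage points), for all neurons (top) and without the 4 under 2000 genes (bottom). The median of all 4364 genes (dashed line) is at 14.8 points in the first and 3.24 in the second, and triangles are the 7 L5 extratelencephalic markers that passed the filter on low counts.

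Among the L5 extratelencephalic markers *Ldb2*, *Pou3f1* and *Crym* were counted in more of the detected neurons by a wide margin, and *Bcl11b* had nearly the same share in both classes. Of the 16 genes of this list other than *Fezf2*, 12 had a higher and 2 a lower share in the detected class, beside 82.0% of all tested genes with a higher share, and *Chrna6* and *Krt80* had no count in any of the 39 neurons. The median difference over the 16 was 11.6 points, and 9 of the 16 did not pass the filter on low counts that the background genes passed. The 7 that did had a median of 22.2 points, beside the 14.8 points of all tested genes, and 4 of the 7 lay above it. At 100000 counts *Ldb2* (37.5), *Pou3f1* (30.7) and *Crym* (21.6) lay above the 10.2 points of all genes tested there. *Parm1* (7.95), *Npr3* (-5.68), *Sox5* (-5.68) and *Bcl11b* (-14.8) lay below it. Without the neurons under 2000 genes *Parm1* (5.56) was above the 3.24 of all genes, and *Npr3*, *Sox5* and *Bcl11b* stayed below it. The median over the 16 fell to 6.25 points at 100000 counts (10.2 for all genes tested there), to 4.63 without the neurons under 2000 genes (3.24 for all genes) and to 2.27 with both.

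*Ldb2*, a LIM domain-binding cofactor of transcription factors, had counts in 18 of 27 detected neurons (66.7%, interval 46.04 to 83.5%) and 2 of 12 undetected neurons (16.7%, 2.09 to 48.4%). Its level ran from 0 to 820 CPM (median 6.25) in the detected class and from 0 to 303 CPM (median 0) in the undetected class. The 2 undetected neurons were C31, with 249 counts (303 CPM), and C14, with 1 count. *Ldb2* was the 1 gene of the list to meet the limits of size used here, a ratio of mean CPM + 1 of at least 2 together with shares at least 40 points apart, with a log2 ratio of 2.59. At 100000 counts its shares were 11 of 22 and 1 of 8, a difference of 37.5 points that missed the limit of 40, and without the neurons under 2000 genes it was 41.7 points.

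*Pou3f1* (Oct6, a POU-domain factor) had counts in 17 of 27 detected neurons (63.0%, 42.4 to 80.6%) and 3 of 12 undetected neurons (25%, 5.49 to 57.2%). The detected neurons ran from 0 to 480 CPM, with a median of 38.8 CPM. The 3 undetected neurons were C2 with 155 counts (197 CPM), C25 with 45 counts (101 CPM) and C39 with 1 count (9.31 CPM). The mean CPM was higher in the detected class within 7 of the 8 prefixes that held both. At equal depth the shares were 15 of 22 and 3 of 8, and without the neurons under 2000 genes the difference narrowed from 37.96 to 25.5 points. With both settings together it was 18.2 points.

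*Crym* differed in how many neurons held it and hardly in level. It had counts in 19 of 27 detected neurons (70.4%, 49.8 to 86.2%) and 4 of 12 undetected neurons (33.3%, 9.92 to 65.1%), whereas the mean was 116 ± 190 CPM (SD, n = 27) against 108 ± 174 CPM (SD, n = 12). The 4 undetected neurons were all well above the few-count range: C21 with 66 counts (524 CPM), C14 with 16 counts (290 CPM), C41 with 104 counts (254 CPM) and C2 with 177 counts (225 CPM). All 4 exceeded the detected class's median of 54.9 CPM, and the highest detected neuron, C38, reached 926 CPM. Within prefixes its mean CPM was higher in the detected class in 5 and lower in 3. The difference in share of 37.04 points was 21.6 at 100000 counts, 20.4 without the neurons under 2000 genes and 9.09 with both, and the log2 ratio of the means went from 0.10 to -0.48 without those neurons.

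*Bcl11b*, the factor that acts downstream of *Fezf2* in corticospinal neurons, had counts in 11 of 27 detected neurons (40.7%, 22.4 to 61.2%) and 4 of 12 undetected neurons (33.3%, 9.92 to 65.1%). The difference of 7.41 points was below the background median. Its levels reached 867 CPM in C15 of the detected class and 109 CPM in C14 of the undetected class, followed by C2 with 70 counts (88.9 CPM), C21 with 3 counts (23.8 CPM) and C25 with 10 counts (22.5 CPM). At 100000 counts the shares were 5 of 22 and 3 of 8, and the difference was -14.8 points. Without the neurons under 2000 genes it was -9.26 points.

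Extratelencephalic markers thus also occurred in neurons without *Fezf2* counts, deeply sequenced ones included. Of *Pou3f1*, *Crym* and *Bcl11b*, 6 of 12 undetected neurons held none, 2 held 1, 3 held 2, and C2 held all 3. Among the 27 detected neurons 2 held none, 8 held 1, 12 held 2 and 5 held all 3. C2 (787287 counts, *Fezf2* limit 3.81 CPM) and C25 (443593 counts, limit 6.76 CPM) combined *Pou3f1* and *Bcl11b* with a *Fezf2* level that, at most, was far below 84.2 CPM. C21, with 126035 counts, held 7 of the 16 list genes and the highest summed level of the list in the undetected class, 1992 CPM. At the other end, C1, C13, C18 and C19 held none of the 16, and no detected neuron did. Across classes the number of list genes per neuron was between 1 and 8 (median 4) in the detected class and between 0 and 7 (median 1.5) in the undetected class, and at 100000 counts the medians were 4 and 2.

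The remaining members of the list were sparser. *Parm1* (15 of 27 against 4 of 12) and the natriuretic peptide receptor *Npr3* (10 against 3) had mean levels that differed little, 169 against 145 CPM and 61.1 against 56.8 CPM. The *Npr3* share difference of 12.04 points turned to -5.68 at 100000 counts and -0.46 without the neurons under 2000 genes. *Sox5*, an SRY-box factor of deep-layer neurons, had a slightly lower share in the detected class (8 of 27 against 4 of 12) and a lower mean, 35.5 against 75.7 CPM. *Fam84b* (9 against 2), *Bcl6* (8 against 1), *Colgalt2* (5 against 0) and *Vat1l* (3 against 0) did not pass the filter. *Lgr5*, a receptor of R-spondins, had a count in 1 neuron, which was undetected.

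**Figure D4:**
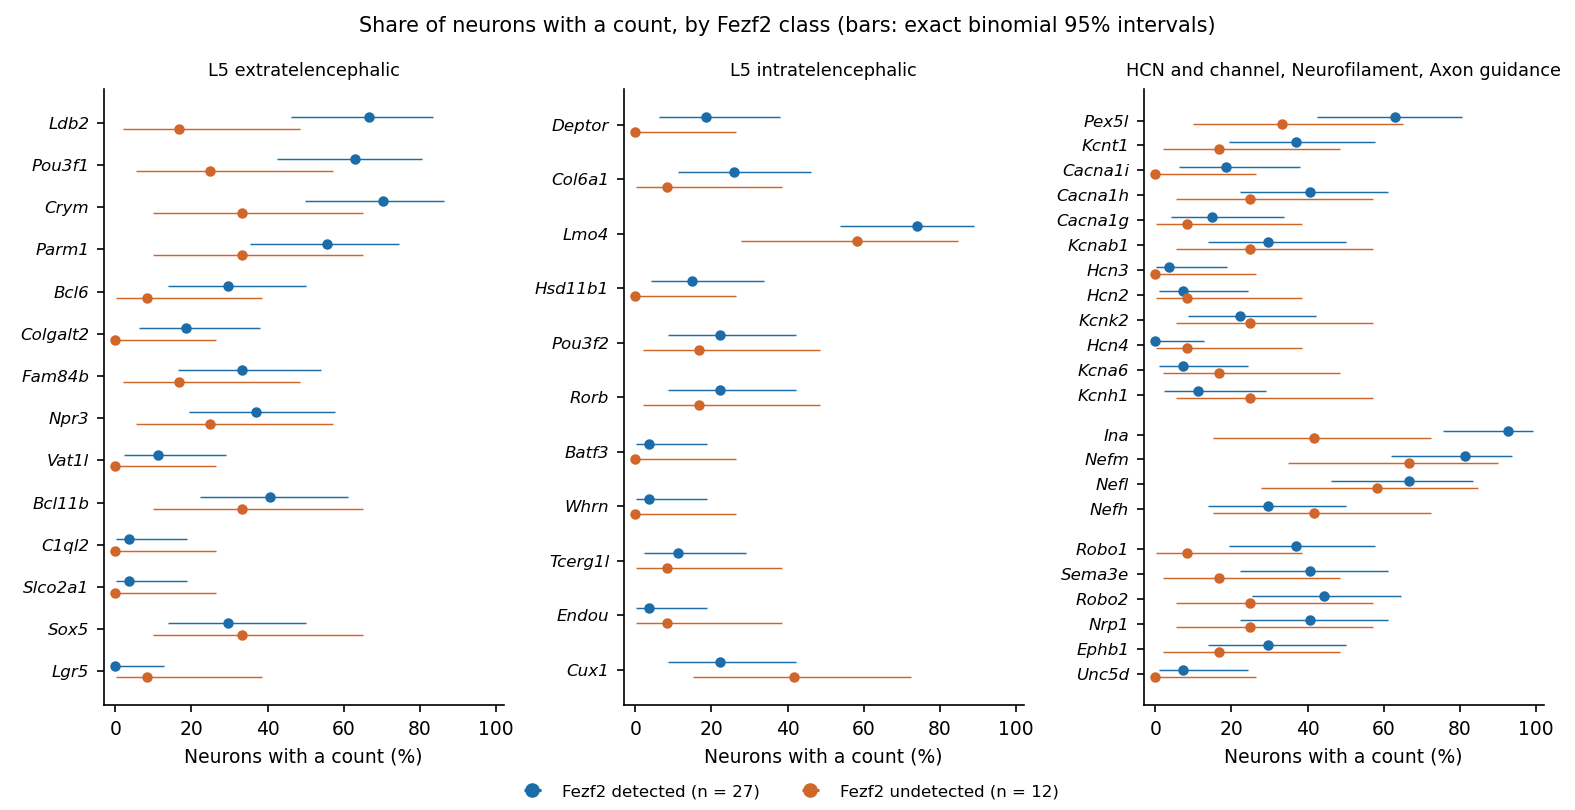
Share of neurons with a count (points) with exact binomial 95% intervals (bars) for genes of 5 lists that had a count in any neuron, in the 27 detected and 12 undetected Pyr←ORBvl neurons. The widest gap in share is that of *Ina*, 92.6% against 41.7%. The intervals treat neurons as independent and are no test of a difference.

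Of 13 intratelencephalic markers, 10 had a higher share in the detected class and 2 a lower one (*Cux1* and *Endou*), beside 82.0% higher over all tested genes. The median difference was 5.56 points, and 0 without the neurons under 2000 genes. *Rorb* had counts in 6 of 27 against 2 of 12 (a difference of 5.56 points, and -2.78 without those neurons), *Deptor* in 5 against 0 and *Hsd11b1* in 4 against 0. *Cux1*, a homeobox factor of upper-layer neurons, was the exception: 6 of 27 detected neurons (22.2%) and 5 of 12 undetected neurons (41.7%) had counts, at mean levels of 7.30 and 27.2 CPM. Its difference of -19.4 points widened to -31.8 at 100000 counts and to -40.3 without the neurons under 2000 genes. *Lmo4*, a LIM-only cofactor and the 1 gene of the list past the filter, had counts in 20 of 27 and 7 of 12 at 57.7 and 52.2 CPM, and its difference of 15.7 points turned to -7.95 at 100000 counts and -13.4 without the neurons under 2000 genes. The summed level of the list was between 0 and 2400 CPM (median 180) in the detected class and between 0 and 541 CPM (median 107) in the undetected class.

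Most markers of other layers and projection classes were sparse in both, with *Lamp5* and *Sla2* as exceptions. Of the 4 near-projecting genes only *Sla2* passed the filter, with counts in 18 of 27 and 5 of 12 neurons. Of 8 layer 6 genes none passed. *Tbr1*, a T-box factor that represses *Fezf2* in corticothalamic neurons, had counts in 8 of 27 detected neurons and 0 of 12 undetected neurons. The exact upper limit of the latter share, 26.5%, takes every neuron as able to show the gene, but in C19 even the highest detected *Tbr1* level of 266 CPM was below the 1245 CPM of 3 counts. At 100000 counts the gene was in 3 of 22 and 0 of 8. *Foxp2* had counts in 2 neurons of each class. In the layer 2/3 and 4 list, *Lamp5* had counts in 25 of 27 and 10 of 12 at 841 and 730 CPM, and its share difference of 9.26 points was -7.41 without the neurons under 2000 genes. The calcium-binding *Calb1* (9 against 1) and *Cux2* (4 against 0) had higher shares in the detected class, and *Rasgrf2* (1 against 3) a lower share.

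No gene of the HCN and channel list met both limits of size. *Pex5l* (TRIP8b), the auxiliary subunit that sets HCN trafficking, had counts in 17 of 27 and 4 of 12 neurons at 87.0 and 77.5 CPM. The sodium-activated potassium channel *Kcnt1* (10 against 2) and the T-type calcium channel *Cacna1h* (11 against 3) had higher means in the detected class, 75.7 against 24.2 CPM and 105 against 25.9 CPM. The neuron with most of it held 70.6% of the undetected *Kcnt1* level and, for *Cacna1h*, 88.4%. Of the 13 genes of this list 8 had a higher and 5 a lower share in the detected class, beside 82.0% higher over all tested genes, with a median difference of 4.63 points. The 4 that passed the filter had a median of 20.8 points, and all 4 lay above the background median. Among the 5 with a lower share was the potassium channel *Kcnh1*, which did not pass the filter and had counts in 3 of 27 and 3 of 12 neurons at 0.199 and 91.4 CPM, with 71.4% of the undetected level in 1 neuron, at 782 CPM.

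Among neurofilament genes, *Ina* (α-internexin) had the largest difference in share of any listed gene. It had counts in 25 of 27 detected neurons (92.6%, 75.7 to 99.1%) and 5 of 12 undetected neurons (41.7%, 15.2 to 72.3%), and at 100000 counts in 22 of 22 and 4 of 8. Its mean level was 336 ± 370 CPM (SD, n = 27) against 190 ± 323 CPM (SD, n = 12), a log2 ratio of 0.82 that missed the 2-fold limit. The undetected neurons with *Ina* included C2, at 977 CPM, and C31, at 577 CPM, levels within the detected range of 0 to 1427 CPM. The difference narrowed to 30.1 points without the neurons under 2000 genes. *Nefm* (22 against 8) and *Nefl* (18 against 7) differed by 14.8 and 8.33 points, which turned to -6.02 and -8.33 points without those neurons and to 2.27 and -6.82 points at 100000 counts. *Nefh* was in a lower share of detected neurons (8 against 5).

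Of 8 axon guidance genes, 6 had a higher share in the detected class, beside 82.0% of all tested genes, and *Plxnd1* and *Dcc* had no count. The semaphorin co-receptor *Nrp1* (11 of 27 against 3 of 12) had mean levels of 178 and 31.1 CPM, the Slit receptor *Robo2* (12 against 3) 115 and 19.02 CPM, and *Ephb1* (8 against 2) 84.8 and 2.82 CPM. In the undetected class the neuron with most of it held 94.4% of the *Nrp1* level and, for *Robo2*, 89.6%. The *Nrp1* share difference of 15.7 points was 3.24 without the neurons under 2000 genes and 3.41 at 100000 counts, and that of *Robo2* went from 19.4 to 6.94 and 28.4 points. That of *Ephb1* was 12.96 points, 4.63 without those neurons and 14.8 at 100000 counts. *Sema3e* (11 against 2) and *Robo1* (10 against 1, which did not pass the filter) pointed the same way. The median difference of the list was 14.4 points over the 8 genes and 17.6 over the 4 that passed the filter, 3 of which lay above the background median of 14.8.

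Across all genes, 155 of 4364 met both limits of size in favour of the detected class (3.55%) and 2 in favour of the undetected class (0.0458%). This imbalance has to be read with the depth and gene counts above. Of the 155, 24 had 5 counts or more in no undetected neuron and so passed the filter through the detected class alone. The median share among the 155 was 66.7% in the detected and 16.7% in the undetected class. After thinning to 100000 counts 112 genes of 2775 (4.04%) and 1 gene (0.036%) met the limits, and 54 of the 155 were among the 112. Without the 4 neurons under 2000 genes the counts were 96 of 4288 (2.24%) and 19 (0.443%), and 65 of the 155 were among the 96. Met under all 3 settings were 24 genes.

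The 10 genes with the largest difference in share towards the detected class are given next, and 1 library could make up much of their undetected level. *Scoc*, a short coiled-coil protein of the Golgi, had counts in 24 of 27 detected neurons (median 163 CPM, highest 1022 CPM) and in 2 of 12 undetected neurons, 1 of which held 96.8% of that class's summed level. *Syne1* (nesprin-1, of the nuclear envelope) had counts in 23 and 2 neurons, *Timm44* (mitochondrial protein import) in 20 and 1, *Acot13* (an acyl-CoA thioesterase) in 22 and 2, *Ndrg3* in 24 and 3, and *Pi4ka* (a phosphatidylinositol 4-kinase) in 21 and 2. *Ak6* (24 and 3) and *Gm20390* (23 and 3) are less certain, since *Ak6* overlaps *Taf9* in the annotation and *Gm20390* had no RefSeq match here. *Gtpbp6*, a GTP-binding protein that overlaps *Plcxd1*, had counts in 16 of 27 neurons and in 0 of 12. *Arhgap1*, a GTPase-activating protein, had counts in 18 neurons at up to 524 CPM and 1 count in 1 undetected neuron. Both *Gtpbp6* and *Arhgap1* passed the filter on low counts through the detected class alone.

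These 10 genes were picked for their difference in the same neurons, so the values that follow are a description. Without the neurons under 2000 genes they differed by 47.7 to 69.0 points, and *Ak6* then had a log2 ratio of 0.55, short of the 2-fold limit. At 100000 counts the difference was 34.1 points for *Pi4ka* (13 of 22 against 2 of 8), under the limit of 40, and between 46.6 points (*Timm44*) and 64.8 points (*Syne1* and *Acot13*) for the other 9. Within the 8 prefixes the mean CPM was higher in the detected class in between 5 (*Timm44*, with 1 lower) and 8 (*Ndrg3*), and *Ak6* had 6 higher and 2 lower.

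The 2 genes towards the undetected class were *Bin2* and *Tmem60*. *Bin2*, a BAR-domain protein of microglia and blood cells, had counts in 7 of 27 detected neurons (mean 97.1 CPM, highest 691) and 9 of 12 undetected neurons (mean 768 CPM, highest 5274). In the undetected class 57.2% of the summed CPM was in C13 alone, where 61 counts gave 5274 CPM, and C1 held 1265 counts (1430 CPM). Without the neurons under 2000 genes it had counts in 5 of 8 undetected neurons, and the difference of -36.6 points no longer met the limits. At 100000 counts its difference was -5.68 points. *Tmem60*, a transmembrane protein, had counts in 4 of 27 neurons (mean 22.8 CPM) and 7 of 12 (mean 107 CPM). Without the neurons under 2000 genes its difference was -60.2 points, but it no longer passed the filter on low counts and was not among the genes compared there. The 19 genes met without them included *Shisa5* (13 of 27 against 8 of 8), *Yrdc* (16 against 8 of 8) and *Ramp1* (15 against 8 of 8), which were chosen after their values were seen.

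Transcripts of microglia were present in both classes and stood beside these results. Of the 9 microglial genes all 9 had counts. *C1qb*, a complement component, had counts in all 39 neurons, *C1qa* in 23 of 27 and 12 of 12, and *Ctss* (cathepsin S) in 19 and 11. The receptors *Cx3cr1* (13 against 4), *P2ry12* (17 against 5) and *Csf1r* (16 against 4) and the transmembrane protein *Tmem119* (7 against 1) had higher shares in the detected class. The summed level of the list was between 0.923 and 20065 CPM (median 1416) in the detected class and between 443 and 15649 CPM (median 3578) in the undetected class. Within the 8 prefixes that held both classes its mean was higher in the detected class in 5 and lower in 3. Without the neurons under 2000 genes the *Cx3cr1* share difference went from 14.8 to -1.85 points, and at 100000 counts that of *Ctss* from -21.3 to 10.2 points. C1 and C13, which carried the *Bin2* level, had the highest sums of the undetected class, 12236 and 15649 CPM. In those 2 neurons no extratelencephalic or intratelencephalic gene of the lists and no *Slc17a7* was counted. The part of microglial transcripts in the differences between the classes was not tested.

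**Figure D5:**
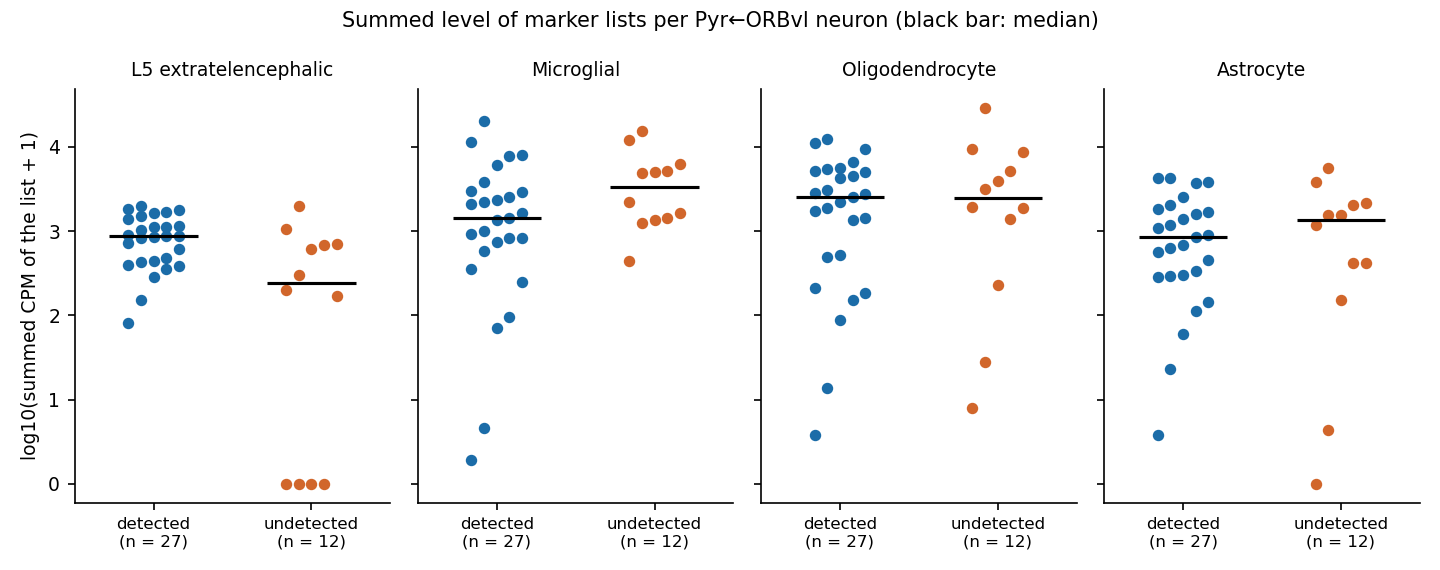
Summed CPM of 4 marker lists per Pyr←ORBvl neuron, as log10(sum + 1), with class medians as black bars. For the L5 extratelencephalic list the medians are 865 and 250 CPM with 4 undetected neurons at 0, and for the microglial list they are 1416 and 3578 CPM.

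The other glial lists had closer class medians. The oligodendrocyte gene *Mbp* had counts in all 39 neurons, and the median sum of the oligodendrocyte list was 2573 and 2550 CPM, with C13 highest at 29137 CPM. *Mobp* (22 against 9, turning to -6.02 points without the neurons under 2000 genes), *Mal* (5 against 0) and *Mag* (3 against 0) had higher shares in the detected class and *Olig1* (4 against 3) a lower one, while *Olig2* was at 0. The astrocyte filament gene *Gfap* had counts in 4 of 27 and 5 of 12 neurons. *Sox9* (10 against 3), *Mlc1* (2 against 2) and *Slc1a3* (8 against 3) differed by 12.04 points or less, with a direction that turned for each either at 100000 counts or without those neurons, and the list's median sum was 864 and 1374 CPM. Of the vascular genes, *Itm2a* and *Vtn* had counts in 2 detected neurons each, with *Cldn5* and *Flt1* at 0. Among GABAergic genes *Slc32a1* was at 0 in all 39, and *Gad1* (4 against 2), *Gad2* (3 against 0), *Sst* (6 against 1), *Npy* (5 against 1) and *Dlx1* (0 against 1) were sparse. *Pvalb* was the most frequent of them, in 9 of 27 and 4 of 12 neurons at means of 39.2 and 112 CPM, and 57.9% of the undetected sum was in 1 neuron, at 778 CPM. The GABAergic list summed to 545 CPM in C1 and 778 CPM in C13.

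Activity-dependent genes were found in both classes. *Fos* and *Junb* had counts in all 39 neurons. *Arc* (26 of 27 against 9 of 12) had mean levels of 1107 and 1093 CPM. *Fosb* had counts in 13 and 2 neurons. The heat-shock genes *Hspa1a* (7) and *Hspa1b* (6) had counts in detected neurons only. For counts in 0 of 12 neurons the exact upper limit of the share is 26.5%, and the undetected neurons were shallower.

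The 5 Pyr←ORBvl neurons left out by the GABAergic sum all had *Fezf2* counts. They were C3 (70 counts, sum 14.8), C5 (718, 8.09), C11 (799, 8.13), C26 (15, 8.00) and C29 (6, 7.17). C29 lay just outside the limit of 7, and the detected neurons C27 (6.97) and C8 (6.32) just inside it. C5 and C11 were nearly the same library, with a Pearson correlation of 0.993 across genes on log2(count + 1), where the highest among the 39 members was 0.548. Since both were over the limit, keeping 1 of the pair changed nothing in the comparison. With 1 of the pair and the other 3 neurons put back (31 detected neurons), 183 genes met the limits towards the detected class.

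The same split was made in neurons the classes above did not use, the 44 Pyr←LP neurons left by the same limit. Here too the detected class had more genes. *Crym* and *Ldb2* again had a higher share in the detected neurons, *Bcl11b* had nearly the same share in both and *Pou3f1* a lower one. *Fezf2* had counts in 18 of 44 (40.9%, 26.3 to 56.8%), at 12.1 to 1201 CPM (median 82.6). The median number of genes was 3540 in the detected and 2713 in the undetected neurons, although the median total was not higher in the detected ones (309959 against 469283 counts). At 100000 counts, with 16 and 19 neurons, the medians were 3255 and 2533 genes. Of 4279 tested genes, 85.7% had a higher share in the detected neurons, with a median difference of 14.96 points.

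In the Pyr←LP split *Pou3f1* had counts in 2 of 18 against 5 of 26 neurons (-8.12 points). *Bcl11b* had them in 2 against 3 (-0.427 points). *Crym* had counts in 7 against 2 (31.2 points), *Ldb2* in 7 against 4 (23.5 points) and *Ina* in 14 against 11 (35.5 points). The limits of size were met by 82 genes towards the detected Pyr←LP neurons (1.92%) and 0 towards the undetected (0%). Of the 155 genes of the Pyr←ORBvl split 4 were among the 82 (*Cdc5l*, *Fdft1*, *Nsfl1c* and *Ppp5c*), which is 2.58% of the first list and 4.88% of the second. Of the 132 that could be tested in both, 93.2% had a higher share in the detected Pyr←LP neurons, beside 85.7% of all 3477 genes tested in both. *Scoc* and *Arhgap1*, among the 10 largest in Pyr←ORBvl, differed by 3.42 and 3.85 points in Pyr←LP, and *Syne1* and *Timm44* by 37.2 and 36.3 points. *Bin2* and *Tmem60* went the other way in Pyr←LP, each with a share 15.8 points higher in the detected neurons (7 of 18 against 6 of 26). The difference between the Pyr←ORBvl and Pyr←LP splits was not tested.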

How the data were processed

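Single L5 Pyrs of mouse V1 were sequenced with a Smart-seq2-based kit. The authors aligned reads to GRCm38 with STAR 2.5.3, removed PCR duplicates and deposited counts of uniquely aligned reads per RefSeq gene, without normalization. The deposited FPKM, whose method is not given in the sources used here, entered only 1 alternative. Of its 34745 gene entries, 126 carry a symbol that occurs more than once. Totals per neuron in the series were between 2410 and 1948982.

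CPM were computed here as counts per 1000000 counts of a neuron. A gene was counted as present at 1 count, and was tested where 10 or more neurons held 5 or more counts. Limits of size were a 2-fold ratio of mean CPM + 1 (pseudocount 1) together with shares at least 40 percentage points apart. No test over neurons was run. Exact binomial 95% intervals came from scipy 1.17.1 and thinning from numpy 2.4.6 (seed 11), in Python 3.11.15 with pandas 2.3.3 and matplotlib 3.10.9. TMM factors for 1 alternative came from edgeR 4.0.16 in R 4.3.3.

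Genes were named by rule: genes past the filter from the projection, layer, channel, neurofilament and axon guidance lists, up to 10 genes past the limits in each direction by difference in share, and up to 4 of every other list. Other names are cell type markers or, where a list is described, further members of it. The members and lists were chosen with earlier results of these data known. Gene positions are from the RefSeq table of GRCm38. Values of a few listed genes are left out here, though the counts over their lists include them.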

Additional observations from a re-analysis of the deposited data

How the results depend on the processing

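No test paired by neuron was run, since the neurons' numbers follow the order of deposit and the labels name no animal. Within each of the 8 title prefixes that held both classes, only the direction of the difference in class means was counted. The shares for *Pou3f1* and *Crym* and the medians of both L5 lists kept their sign or reached 0 under every alternative run. Without the neurons under 2000 detected genes, the difference in median detected genes was -125, that in the *Bcl11b* share -9.26 points, and 96 and 19 genes met the limits towards the detected and undetected class. Thinned to 100000 counts the *Bcl11b* difference was -14.8 points, in both random draws, and 1 gene met the limits towards the undetected class in the first draw and 2 in the second. With both settings together, an alternative chosen after seeing the data like the second draw, the values were -157 genes, -27.3 points, and 86 and 19 genes. A limit of 30 points on the share gave 429 genes towards the detected class. Towards the undetected class 1 gene met the limits with the GABAergic sum on TPM, with all labelled neurons (whichever of C5 and C11 was kept) and with at least 5 *Fezf2* counts, and 0 with presence set at 5 counts.

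Leaving out each title prefix in turn gave 140 to 262 genes towards the detected class and 1 to 2 towards the undetected class. The 262 came without prefix 915, which held 3 detected neurons and 1 undetected neuron. The difference in detected genes stayed between 1145 and 1485, that in the *Bcl11b* share between 0 and 15.04 points, and for *Pou3f1* and *Crym* between 30.7 and 44.3 and between 30.3 and 45.8 points. With the rule applied to C11 in place of C5 the members were the same. The cause of these changes was not tested beyond the neurons each setting removes, and depth limits what a count of 0 says in C13, C18 and C19. C1 and C16 had more counts but few genes, which the limits set from depth do not cover.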
